A study of Rattus norvegicus with 12 samples.

Results

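MHC class II genes were followed through carbon tetrachloride injury of the rat liver. The set comprises the antigen-presenting chains RT1-Ba, RT1-Bb, RT1-Da and RT1-Db1, the peptide exchange factor chains RT1-DMa and RT1-DMb, the invariant chain Cd74 and the transactivator Ciita. Probe sets were taken where the gene symbol deposited with the array values equalled 1 of these 8 names. That rule found 11 probe sets of 6 genes, among 31099 probe sets and 13897 named genes in the whole series. Both DM chains were listed under other symbols, Hla-dma and Hla-dmb. They were found by their gene titles, are given with their values, and are kept out of the counts of called class II probe sets, which would otherwise cover 13 probe sets of 8 genes.

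Liver from Sprague-Dawley rats was hybridised to 12 Affymetrix Rat Genome 230 2.0 arrays, 3 in each of 4 groups. The groups were normal liver (0h) and liver after 3, 6 or 9 weeks of carbon tetrachloride (CCl4), a solvent that hepatocytes turn into a radical that injures them and, given repeatedly, leads to cirrhosis. Every group is labelled as 12-week-old animals, whatever the time of treatment, and the sources used here give neither the sex nor the number of the animals. Arrays within a group are labelled technical replicates, so every p-value measures the spread between arrays and not between animals. The 0h liver was the only control analysed here, with no vehicle group and no untreated group of the later times, and the dose of CCl4 is not stated in the labels. Albumin (Alb), made by hepatocytes, had a mean signal of 40800 at 0h, and 8 of 8 hepatocyte genes were measured, so the defining markers of the labelled tissue were present.

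Class II molecules are pairs of an alpha and a beta chain that show peptides from endosomes to CD4 T cells. In the rat, RT1-B and RT1-D are the presenting pairs. The invariant chain guards the groove on the way to the endosome, and DM then swaps its remnant for a peptide. CIITA does not bind DNA itself. It is recruited to factors that sit on the X and Y boxes of class II promoters, and its own gene is induced by interferon-gamma. In the liver, macrophages, dendritic cells, B cells and the sinusoidal endothelium are known to carry class II, whereas resting hepatocytes hardly do.

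Promoters are printed here because the genes below moved together on the arrays. Each stretch comes from the RefSeq promoter windows of the rat build GRCr8, which run from 250 bases before to 50 after the gene start, and 6 of the 8 genes matched a window there. RT1-DMb and Ciita have none printed. Capitals mark GNNACNG, letters of the X box, and GATTGG, letters of the Y box, or, in Cd74, CCAAT, the Y core ATTGG read on the other strand.
RT1-Ba: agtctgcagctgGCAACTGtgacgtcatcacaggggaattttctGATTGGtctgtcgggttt
RT1-Da: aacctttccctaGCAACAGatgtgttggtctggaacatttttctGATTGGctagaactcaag
RT1-Bb: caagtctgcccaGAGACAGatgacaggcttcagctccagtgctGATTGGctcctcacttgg
RT1-Db1: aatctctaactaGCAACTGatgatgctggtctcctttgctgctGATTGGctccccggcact
RT1-DMa: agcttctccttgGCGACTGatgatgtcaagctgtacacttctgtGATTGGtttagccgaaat
Cd74: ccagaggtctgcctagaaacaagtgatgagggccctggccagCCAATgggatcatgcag
The stretches lie at chr20:4576969-4577030 on the plus strand for RT1-Ba, chr20:4515321-4515382 on the plus strand for RT1-Da, chr20:4604163-4604223 on the minus strand for RT1-Bb, chr20:4560226-4560286 on the minus strand for RT1-Db1, chr20:4712383-4712444 on the minus strand for RT1-DMa and chr18:56526975-56527033 on the plus strand for Cd74.

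In 5 of the 6 windows GNNACNG was followed by GATTGG on the strand of the gene, with 31 or 32 bases from the first base of one to the first base of the other. The X letters began 76 bases before the start in RT1-Ba, 82 in RT1-Da, 93 in RT1-Bb, 97 in RT1-DMa and 112 in RT1-Db1. The Cd74 window held no such pair and had CCAAT 189 bases before the start. Ahead of it the printed stretch has gaaacaa, which differs from GNNACNG in the last letter alone. X letters followed by CCAAT were not searched for, so the missing pair does not show that Cd74 lacks an X box. Of 33469 windows of the same length, 208 (0.621%) held the pair at a distance of 25 to 40 bases on the strand of the gene, and 1.14% held it on either strand. Counted singly on either strand, GATTGG stood in 14.8% of windows, its core ATTGG in 37.5% and GNNACNG in 88.1%. Among class II genes outside the set, 4 had a window and 3 of these held the pair. The letters and the distance were chosen after the windows had been read, and a match is a description of sequence, not a mapped binding site.

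**Figure D1:**
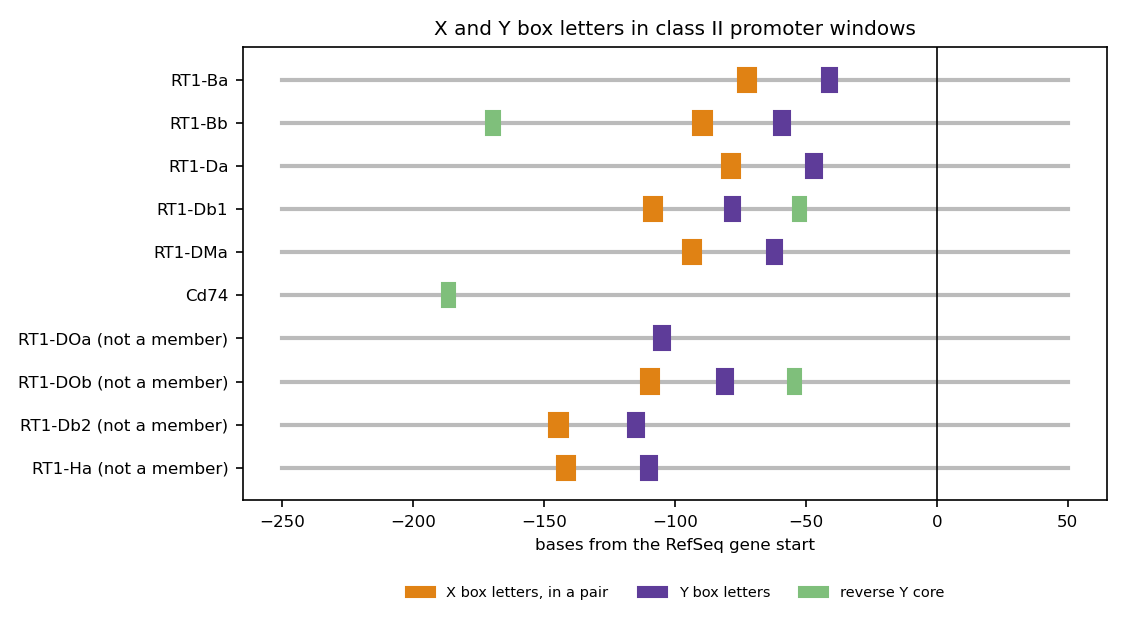
Position of the box letters in bases from the RefSeq gene start (vertical line) for 6 members and 4 other class II genes. Orange blocks are X letters that form a pair, purple blocks GATTGG and green blocks CCAAT. X letters outside such a pair are not drawn. In 5 of 6 members orange stands 31 or 32 bases ahead of purple, and Cd74 shows green only.

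Signals are the authors' linear, scaled intensities. Changes are differences of log2(signal + 16) between group means, so those of dim probe sets are understated. A probe set was called when it changed 2-fold or more with an adjusted p under 0.05 in limma, over the 18625 probe sets that passed a filter on dim signals (a mean signal above 75.3). Rose and fell are used below of such calls alone. Of the 11 probe sets, 10 were tested. RT1-Ba 1381593_x_at was too dim.

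Class II expression rose at 3 weeks, stood near or below the normal level at 6 weeks, and was raised again at 9 weeks. At 3 weeks 7 of the 11 probe sets rose and none fell, against 3.11% of all tested probe sets called higher and 1.30% lower. At 6 weeks none rose and 1 fell, where 5.07% of all were called higher and 3.83% lower. An adjusted p under 0.05 alone was reached at 6 weeks by 5 of 10, against 47.8% of all. At 9 weeks 9 rose and none fell, against 5.85% called higher and 4.28% lower. The median change of the tested class II probe sets was 1.30, -0.22 and 1.89 at the 3 times, and that of all tested probe sets 0.03, 0.04 and 0.04. These comparisons share the 0h arrays. Without their highest group, 9 weeks, RT1-Bb 1371065_at and Ciita would lie below the filter, so they were tested because they differ, and counts and medians that include them are description. Leaving out both, 6 of 8 rose at 3 weeks, 1 fell at 6 weeks and 7 rose at 9 weeks. With no filter, which tests all 11, the counts were again 7, 1 and 9.

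Adjacent treated times differed as well. From 3 to 6 weeks 8 of the 11 probe sets fell and none rose, against 3.80% of all called lower and 2.94% higher. From 6 to 9 weeks 9 rose and none fell, against 1.57% called higher and 1.16% lower. Between 3 and 9 weeks 0 of 10 passed both limits in limma, against 5.57% of all, while 8 had an unadjusted p under 0.05 and 8 an adjusted one, which 41.2% of all reached. Over the whole course, limma's moderated F test with a 2-fold change at 1 time or more called 9 of the 10, against 14.4% of all. Without RT1-Bb 1371065_at and Ciita, 7 of 8 fell from 3 to 6 weeks, 7 rose from 6 to 9 weeks and 7 were called over the course. The steps share groups with one another and with the comparisons against 0h.

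**Figure D2:**
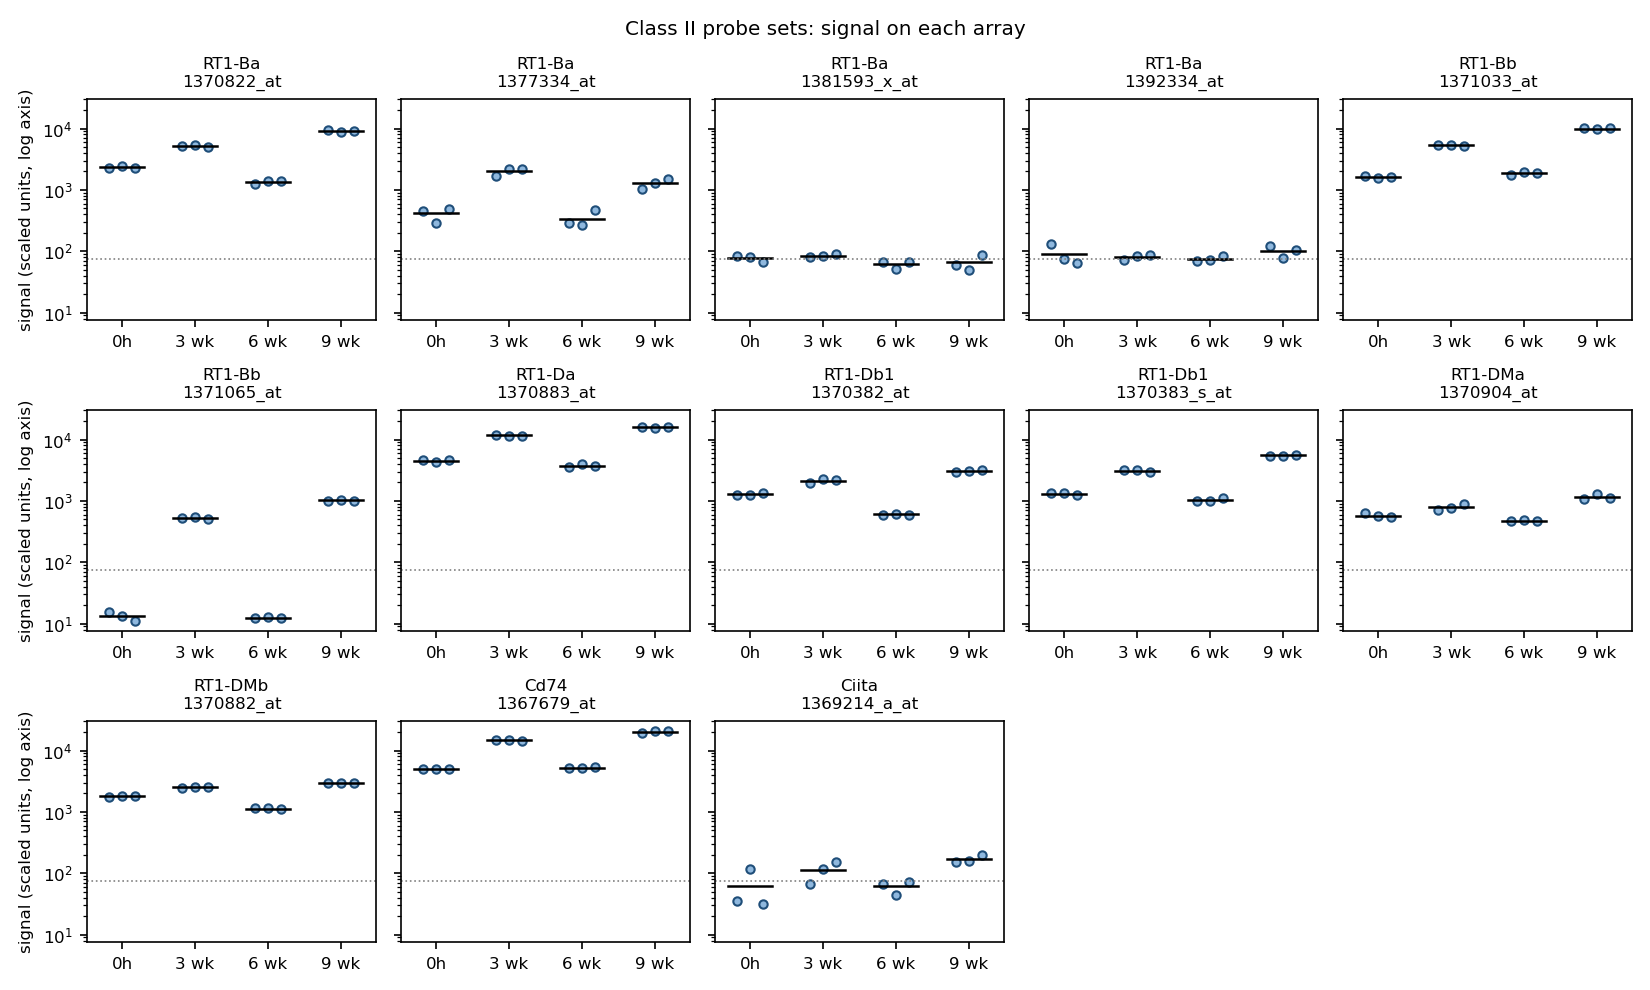
Signal on each array (log axis, scaled units) for the 11 probe sets and both DM chains at 0h and 3, 6 and 9 weeks. Points are arrays, short bars group means of 3, and the dotted line the filter at 75.3; the bright chains are high at 3 and 9 weeks, and RT1-Bb 1371065_at moves from below the line to above it.

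The alpha chain of the D pair, RT1-Da, followed the course closely. RT1-Da 1370883_at read 4599.8, 4353.7 and 4567.7 on the arrays at 0h, 12070.0, 11540.7 and 11509.4 at 3 weeks, 3528.6, 3975.7 and 3683.2 at 6 weeks, and 15786.0, 15551.8 and 16256.3 at 9 weeks. No 2 groups overlapped, with 6 weeks lowest and 9 weeks highest. RT1-Da rose by 1.37 ± 0.05 (SE) on the log2 scale at 3 weeks, 2.59-fold (limma adjusted p = 1.34e-12), and by 1.81 at 9 weeks (3.51-fold, adjusted p = 1.30e-14). At 6 weeks it stood at -0.27 against 0h, under 2-fold. The fall from 3 to 6 weeks was 3.13-fold, and the rise from 6 to 9 weeks 4.24-fold.

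RT1-Db1, the beta chain of that pair, was read by 2 probe sets that cite the same source sequence. RT1-Db1 1370383_s_at read 1352.2, 1333.8 and 1245.2 at 0h, 3149.5, 3137.8 and 3007.9 at 3 weeks, 1007.2, 1000.3 and 1096.1 at 6 weeks, and 5459.5, 5396.7 and 5655.0 at 9 weeks. RT1-Db1 1370382_at read 1241.9, 1253.2 and 1333.6 at 0h, 1963.0, 2287.4 and 2182.2 at 3 weeks, 583.5, 621.1 and 597.0 at 6 weeks, and 2984.7, 3086.0 and 3222.9 at 9 weeks. Both ran in the same order with no overlap between groups, and the changes of the second against 0h were the lower ones at each time. Against 0h the changes of 1370383_s_at were 1.23, -0.34 and 2.06 (SE 0.05) at 3, 6 and 9 weeks, called at 3 and 9 weeks with adjusted p of 3.42e-11 and 1.43e-14. Those of 1370382_at were 0.74, -1.07 and 1.27 (SE 0.06). It missed 2-fold at 3 weeks, and its fall to 0.477 of normal at 6 weeks (adjusted p = 5.39e-10) was the only call below normal liver among the tested class II probe sets. In the authors' deposited table the mean log2 ratios of 1370382_at against 0h were 1.1, -0.64 and 1.81, on the other side of 2-fold at 3 and 6 weeks. An Affymetrix name ending in _s_at marks probes shared by several transcripts, and RT1-Db2 is a close paralog, so the share of each gene in these signals is uncertain.

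The B pair was represented by RT1-Ba, its alpha chain, and RT1-Bb, its beta chain. RT1-Bb 1371033_at read 1671.4, 1562.1 and 1595.7 at 0h, 5321.9, 5463.0 and 5227.2 at 3 weeks, 1746.9, 1970.0 and 1866.0 at 6 weeks, and 10067.2, 9728.7 and 10129.7 at 9 weeks. All 4 groups were apart, and here 6 weeks lay just above normal. RT1-Bb 1371033_at rose 3.29-fold at 3 weeks (1.72 ± 0.05, adjusted p = 2.00e-13) and 6.15-fold at 9 weeks (2.62, adjusted p = 3.70e-16), with 0.21 at 6 weeks. From 3 to 6 weeks it fell 2.86-fold, and from 6 to 9 weeks it rose 5.33-fold.

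A different probe set of the same gene was dim in 2 groups and bright in the others. RT1-Bb 1371065_at read 15.3, 13.2 and 10.9 at 0h and 12.2, 12.9 and 12.3 at 6 weeks, against 531.3, 537.0 and 511.4 at 3 weeks and 1007.5, 1038.2 and 1005.4 at 9 weeks. At 0h and 6 weeks every array lay far below the filter, and at 3 and 9 weeks every array lay far above it. Its changes were 4.22 ± 0.16 at 3 weeks, -0.03 at 6 weeks and 5.15 at 9 weeks. Because the filter selected it, its adjusted p is given from the limma fit of all 31042 probe sets with no filter, and was 1.35e-10 at 3 weeks and 3.93e-12 at 9 weeks. The step from 6 to 9 weeks was 5.18. Among 31042 probe sets that are no controls, this was the 1 that stayed below 30 on every 0h and 6-week array and above 300 on every 3- and 9-week array, limits set after its values were seen. Under these same limits the other 5 ways of splitting the 4 groups into a dim and a bright pair held 0 probe sets. Since the limits follow its values, these counts are description and not a test. In the authors' deposited table its mean log2 ratios against 0h were 4.8, -0.24 and 5.86. RT1 class II chains are among the most polymorphic proteins known, and Sprague-Dawley is an outbred stock. RT1 haplotypes of the animals and the probes' own sequences were not analysed here.

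RT1-Ba had 4 probe sets that did not run alike. RT1-Ba 1370822_at read 2266.4, 2461.7 and 2301.7 at 0h, 5190.7, 5486.9 and 5056.8 at 3 weeks, 1235.1, 1409.7 and 1377.1 at 6 weeks, and 9449.3, 8939.7 and 9133.9 at 9 weeks. RT1-Ba 1377334_at read 461.4, 289.8 and 487.8 at 0h, 1671.6, 2203.9 and 2165.4 at 3 weeks, 286.6, 265.4 and 463.7 at 6 weeks, and 1036.8, 1314.1 and 1525.3 at 9 weeks. The first was highest at 9 weeks with all groups apart, whereas the second was highest at 3 weeks and its 0h and 6-week arrays overlapped. Changes of 1370822_at were 1.16, -0.80 and 1.96 (SE 0.06) at 3, 6 and 9 weeks, and those of 1377334_at 2.27, -0.28 and 1.63 (SE 0.20); both were called higher at 3 and 9 weeks. Between 3 and 9 weeks 1370822_at differed by 0.81 (adjusted p = 5.88e-09) and 1377334_at by -0.64 (adjusted p = 0.0192), opposite in sign and both under 2-fold. The remaining pair cites 1 shared source sequence and was dim. RT1-Ba 1392334_at ran from 65.4 to 129.9 over all 12 arrays with changes of -0.09, -0.17 and 0.18 (SE 0.26), none called. RT1-Ba 1381593_x_at ran from 50.2 to 89.2 and was not tested.

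**Figure D3:**
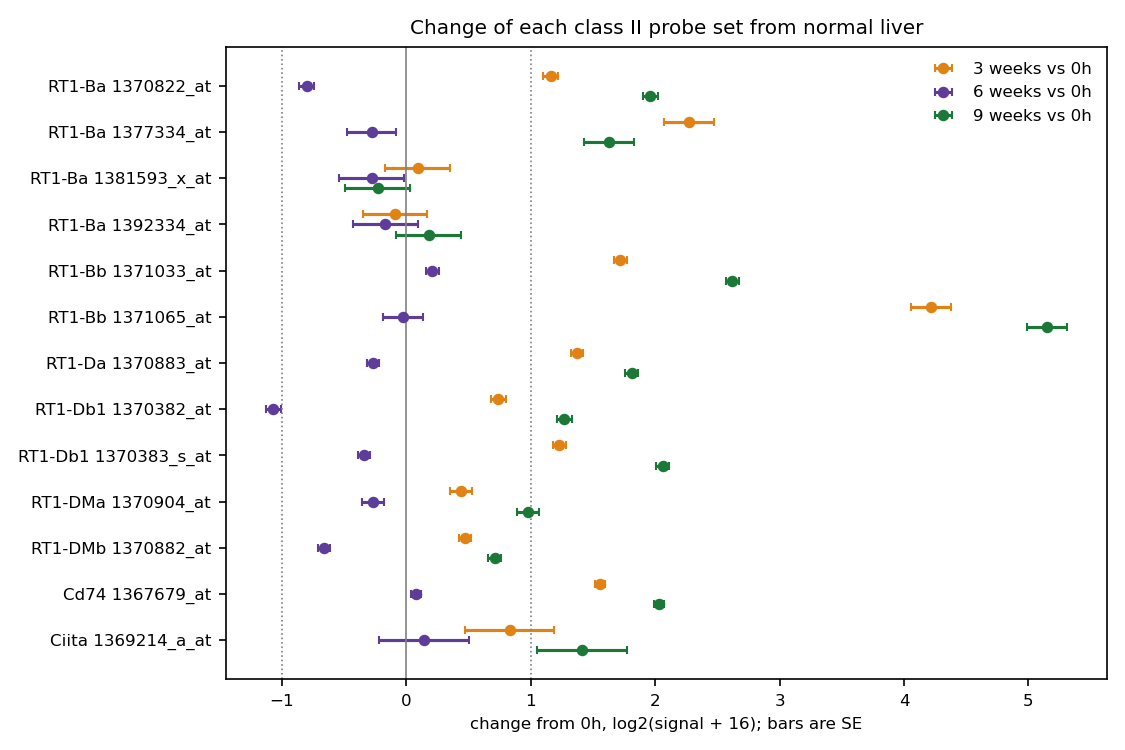
Change from 0h of each probe set on the log2(signal + 16) scale, with SE bars; colours are 3, 6 and 9 weeks, and the dotted lines mark 2-fold. Cd74, RT1-Da and both RT1-Bb probe sets lie beyond the right-hand line at 3 and 9 weeks and between the lines at 6 weeks, where RT1-Db1 1370382_at lies beyond the left-hand line.

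Cd74 encodes the invariant chain, the chaperone of all class II pairs. Cd74 1367679_at read 4996.4, 4939.7 and 4926.9 at 0h, 14997.6, 14607.2 and 14211.5 at 3 weeks, 5147.9, 5258.0 and 5293.8 at 6 weeks, and 19636.6, 20826.9 and 20535.7 at 9 weeks. The 6-week arrays were a little above normal and far below both other treated groups. It rose by 1.56 ± 0.04 at 3 weeks, 2.94-fold (adjusted p = 2.71e-14), and by 2.03 at 9 weeks, 4.09-fold (adjusted p = 3.61e-16), and differed from normal by 0.08 at 6 weeks (adjusted p = 0.11). Cd74 fell 2.78-fold from 3 to 6 weeks and rose 3.88-fold from 6 to 9 weeks.

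The DM chains, which form the peptide exchange factor, were lowest at 6 weeks and highest at 9 weeks, as RT1-Da was, and stayed under 2-fold against 0h. RT1-DMa 1370904_at read 631.2, 557.7 and 536.8 at 0h, 719.6, 773.0 and 873.7 at 3 weeks, 463.0, 492.5 and 463.8 at 6 weeks, and 1069.4, 1287.2 and 1103.6 at 9 weeks. RT1-DMb 1370882_at read 1769.2, 1817.8 and 1811.7 at 0h, 2436.8, 2529.1 and 2527.5 at 3 weeks, 1137.8, 1157.5 and 1109.3 at 6 weeks, and 2945.0, 2947.8 and 2971.1 at 9 weeks. In neither did 2 groups overlap, but neither was called against 0h at any time. The changes were 0.44, -0.27 and 0.98 (SE 0.09) for RT1-DMa and 0.47, -0.66 and 0.71 (SE 0.05) for RT1-DMb at 3, 6 and 9 weeks. The RT1-DMa value at 9 weeks lay at the 2-fold limit and passed it without 0h replicate 1 (1.05), 9-week replicate 1 (1.03) or 9-week replicate 3 (1.01). In the authors' deposited table the mean log2 ratios of RT1-DMa against 0h were 0.67, -0.17 and 1.23, past 2-fold at 9 weeks. Those of RT1-DMb were 0.37, -0.68 and 0.7. RT1-DMb fell 2.18-fold from 3 to 6 weeks (-1.13, adjusted p = 5.98e-12). From 6 to 9 weeks RT1-DMa rose 2.38-fold (1.25, adjusted p = 3.99e-08) and RT1-DMb 2.58-fold (1.37, adjusted p = 1.96e-12).

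Ciita, the master regulator of class II transcription, was dim and variable. Ciita 1369214_a_at read 35.9, 117.2 and 31.5 at 0h, 67.5, 116.5 and 150.4 at 3 weeks, 67.9, 43.5 and 72.0 at 6 weeks, and 150.8, 160.5 and 195.3 at 9 weeks. Every 9-week array was above every other array, while the other 3 groups overlapped and 1 of the 0h arrays stood above the other two. Ciita passed the filter only through its 9-week arrays, so its adjusted p is given from the limma fit with no filter. It rose at 9 weeks by 1.41 ± 0.36 (2.67-fold, adjusted p = 0.00857), and its 3-week value of 0.83 missed the threshold (adjusted p = 0.139). The 3-week change was 1.30 without 0h replicate 2 and 1.11 without 3-week replicate 1. Those fits kept the filter, so only the sizes are given. The rise of Ciita from 6 to 9 weeks was 1.27 (adjusted p = 0.0354 with no filter). In fits that kept the filter, that change was not called without 6-week replicate 2 (1.10) or 9-week replicate 3 (1.17). Adjusted p from those fits is left out, since the filter had selected Ciita. In the authors' deposited table the mean log2 ratios of Ciita against 0h were 1.79, 1.61 and 2.66 at 3, 6 and 9 weeks. Single ratios ranged from -1.1 to 4.3 at 3 weeks, -0.6 to 2.9 at 6 weeks and 0.7 to 3.8 at 9 weeks.

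Upstream of Ciita, the interferon-gamma route was measured for 6 of 8 listed genes. IRF1 is a transcription factor that acts on the Ciita promoter. Over all 10322 genes tested, 2.92% were called higher and 1.27% lower at 3 weeks, 5.13% and 4.43% at 6 weeks, and 6.32% and 3.63% at 9 weeks against 0h. None of the 6 was called at any of these times, where Irf1 stood at 0.33, -0.83 and 0.61 and Irf8 at 0.40, -0.69 and 0.50 in the order of time. From 3 to 6 weeks 2 of 6 fell (4.31% of genes were called lower and 3.21% higher), namely Irf1 (-1.16) and Irf8 (-1.09), the last a regulator of myeloid cells. From 6 to 9 weeks the same 2 rose by 1.44 and 1.19 (1.94% of genes were called higher and 0.581% lower). Between 3 and 9 weeks none of the list was called, against 3.01% higher and 2.76% lower. Ifng itself was below the filter, with group means from 17.9 to 37.8.

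The factors that sit on the X and Y boxes (RFX subunits, NF-Y subunits, CREB1 and ATF1) were measured for 7 of 8 genes, and none was called in any of the 6 comparisons, with list medians from -0.34 to 0.06. Genes that prepare peptides in endosomes were measured for 8 of 8. Ctsd, the aspartic protease cathepsin D, rose at 6 weeks (1.10) and 9 weeks (1.07) and was the only call among them. Ctss, the cathepsin that trims the invariant chain, stood at 0.26, -0.62 and 0.06 at 3, 6 and 9 weeks, under 2-fold at each time. Of 8 costimulation and turnover genes 2 were measured, Cd86 (-0.10, -0.55 and -0.08) and Cd83 (0.46, 0.29 and 0.88), neither called. The other class II chains listed, RT1-DOa, RT1-DOb, RT1-Db2, RT1-Ha and RT1-Hb, were not analysed here.

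**Figure D4:**
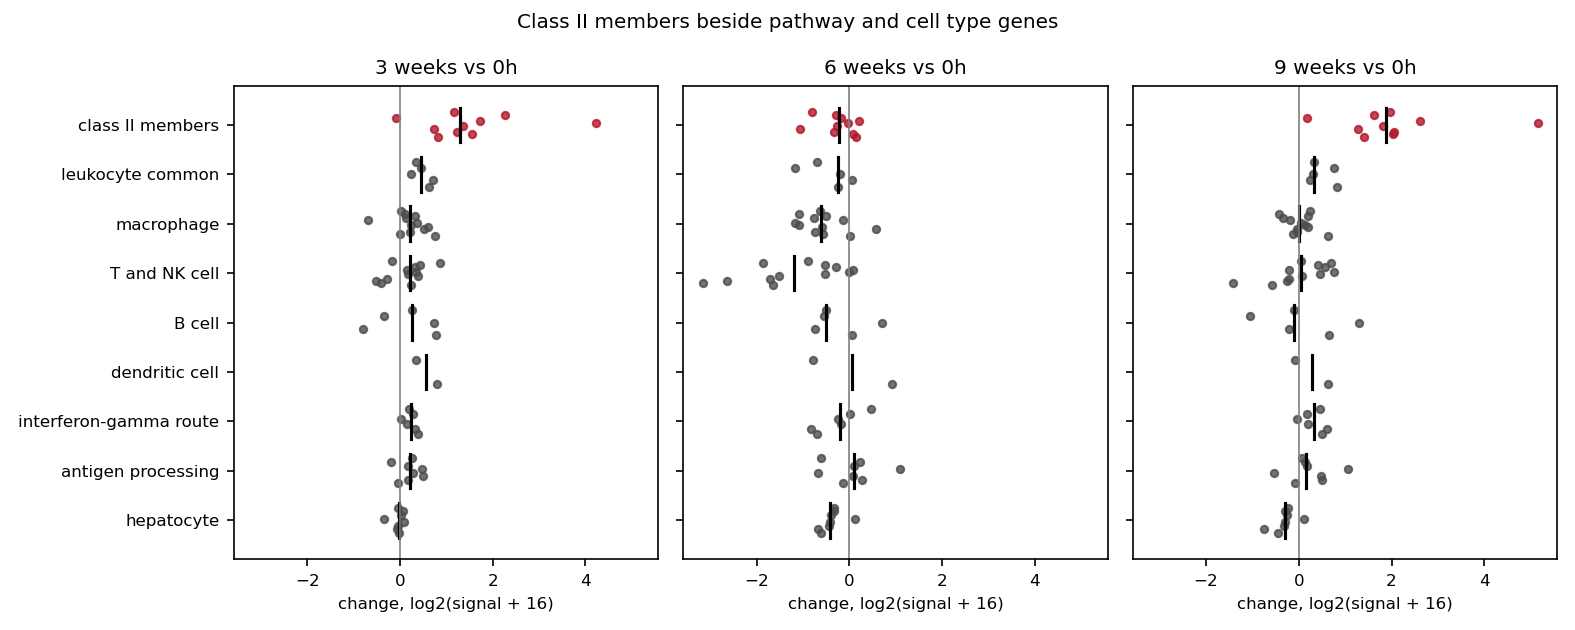
Change from 0h on the log2(signal + 16) scale at 3, 6 and 9 weeks for the 10 tested class II probe sets (red) and for measured genes of pathway and cell type lists (grey); vertical ticks are medians. The class II medians are 1.30, -0.22 and 1.89, while the macrophage medians are 0.22, -0.60 and 0.01.

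Cell type markers moved beside these results, and in whole tissue fewer cells of a type and less RNA per cell cannot be told apart. Of 6 common leukocyte genes 5 were measured. None was called at 3 or 9 weeks against 0h, Coro1a fell at 6 weeks (-1.16), and their summed signal was 5009 to 5204 at 0h, 7226 to 7578 at 3 weeks, 4041 to 4241 at 6 weeks and 6854 to 7206 at 9 weeks. Ptprc (CD45), carried by nearly all leukocytes, fell by 1.05 from 3 to 6 weeks and rose by 1.03 from 6 to 9 weeks. In these steps 2 and 3 of the 5 were called. Macrophage genes were measured for 12 of 16 and none was called at 3 or 9 weeks against 0h. At 6 weeks 3 fell, Aif1 (-1.18), Adgre1 (-1.08) and Itgam (-1.08), and the summed signal was 41781 to 43018, 52689 to 54227, 31277 to 31616 and 42614 to 43732 in the order of time. From 3 to 6 weeks 4 of the 12 fell (Aif1, Itgam, Adgre1 and Lyz2) and from 6 to 9 weeks 2 rose (Aif1 and Itgam). Cd68, a lysosomal protein of macrophages, stood at 0.03, -0.63 and 0.25. The list was not uniform, since Cd14 stood at 0.52, 0.57 and -0.03, C1qc at 0.75, 0.01 and 0.64, and Cd163 at -0.69, -0.14 and -0.18, none called.

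T and NK cell genes were measured for 12 of 14. Against 0h none was called at 3 weeks and 6 fell at 6 weeks, led by Gzma (-3.16), Prf1 (-2.63) and Cd3d (-1.85), with Gzma also lower at 9 weeks (-1.42). From 3 to 6 weeks 6 of the 12 fell, and from 6 to 9 weeks 6 rose. Their summed signal was 2653 to 2725, 2702 to 2804, 1155 to 1254 and 2291 to 2664. Cd3e stood at -0.18, -0.88 and 0.05. B cell genes were measured for 5 of 12, with Blnk higher (1.29) and Cd22 lower (-1.06) at 9 weeks, and sums of 790 to 820, 744 to 917, 606 to 697 and 762 to 849. Cd79b was below the filter at means of 19.3 to 71.4, and Cd79a was not analysed here. Dendritic cell genes were measured for 2 of 12, Clec10a and Itgae, with sums of 539 to 594, 815 to 946, 754 to 803 and 682 to 851. Clec10a fell from 3 to 6 weeks (-1.12) with mean signals of 208, 268, 115 and 195, while Itgae, at 349, 624, 669 and 560, makes up most of the sum. Flt3 was below the filter at means of 8.7 to 37.9, and Itgax was not analysed here.

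Lymphoid tissue genes were measured for 4 of 6. The chemokine Ccl21 and lymphotoxin beta (Ltb) rose at 3 weeks by 2.79 and 1.63, and Ccl21 rose at 9 weeks by 1.68, while Ltb (-1.14) and Cxcl13 (-2.01) fell at 6 weeks. The list summed to 1108 to 1301 at 0h, 3804 to 3926 at 3 weeks, 811 to 1007 at 6 weeks and 1835 to 2108 at 9 weeks. Endothelial genes were measured for 7 of 8, and Plvap, of fenestrated endothelium, fell by 2.42 at 6 weeks and rose by 2.34 from 6 to 9 weeks. Kdr fell at 6 weeks too (-1.09). Stab2 (-0.91), Lyve1 (-0.86), Cdh5 (-0.03), Vwf (0.02) and Pecam1 (0.21) were not called there. Lyve1 fell from 3 to 6 weeks (-1.29) and stood at 0.29 from 6 to 9 weeks, not called. The list's sums were 8835 to 9486, 10085 to 10310, 4833 to 5354 and 6774 to 7301. None of the 8 hepatocyte genes was called in any comparison. Stellate cell genes were measured for 8 of 8, of which Col1a1 (2.24), Col3a1 (1.61) and, just past 2-fold, Acta2 rose at 3 weeks, none at 6 weeks, and Col1a1 (1.73) and Tagln (1.23) at 9 weeks. Their sums were 5765 to 5852, 13865 to 14984, 7865 to 8207 and 8260 to 8615. Of the bile duct genes 3 of 6 were measured, and Spp1 rose at 3, 6 and 9 weeks by 1.07, 3.01 and 1.62. Krt19 stood at 0.34, -0.56 and 0.95 and Epcam at -0.02, -0.41 and 0.42, neither called against 0h. From 6 to 9 weeks Krt19 rose (1.52) while Spp1 fell (-1.39). Pancreatic genes were measured for 5 of 6, and Cpa1, an acinar enzyme, had a mean signal of 6260 at 0h and 28, 34.9 and 34.3 at 3, 6 and 9 weeks, called lower at each time (-7.31, -6.98 and -7.05). The elastase Cela1 fell as well (-1.39, -1.69 and -2.57), and Cpb1 fell at 6 and 9 weeks (-1.82 and -1.86) but not at 3 weeks (-0.16). Pnlip went the other way (0.74, 0.37 and 0.44), and Amy2a3 stood at -0.12, -0.61 and -0.37, neither called. The list's sums were 22693 to 24065, 15040 to 15848, 10489 to 11389 and 12434 to 12759. Amy2a3, at means of 16000, 14700, 10500 and 12300, makes up most of each. The part of these cell types in the class II result was not tested.

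As a description, Cd74 was compared over the 12 arrays with 1783 other genes whose group means spanned at least 2-fold. The highest Pearson correlation was that of Clec12a, an inhibitory lectin of myeloid cells (r = 0.987), with mean signals of 85.7, 273.3, 101.5 and 324.1 in the order of time. Next came Tyrobp, a signalling adaptor of myeloid and NK cells (0.982), Cybb, the catalytic subunit of the phagocyte oxidase (0.978), Lgals3bp (0.974), Plscr1 (0.969), Vim, the intermediate filament vimentin (0.966), Slfn9 (0.965), Ly6e (0.965), Pip5k1c (0.963) and Sp140 (0.960). The lowest were Pdk4, a kinase that restrains pyruvate oxidation (-0.983), Ppm1k (-0.969), Atxn3 (-0.941), Sds, serine dehydratase (-0.934), and Atf2 (-0.914). Pdk4 read 1699.1, 690.7, 1452.9 and 533.6 as group means. Arrays within a group were close to one another, so r here mostly compares 4 group means. Among the class II probe sets themselves, r with Cd74 was 0.998 for RT1-Bb 1371065_at, 0.992 for RT1-Bb 1371033_at, 0.989 for RT1-Da, 0.783 for Ciita and 0.293 for RT1-Ba 1392334_at.

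**Figure D5:**
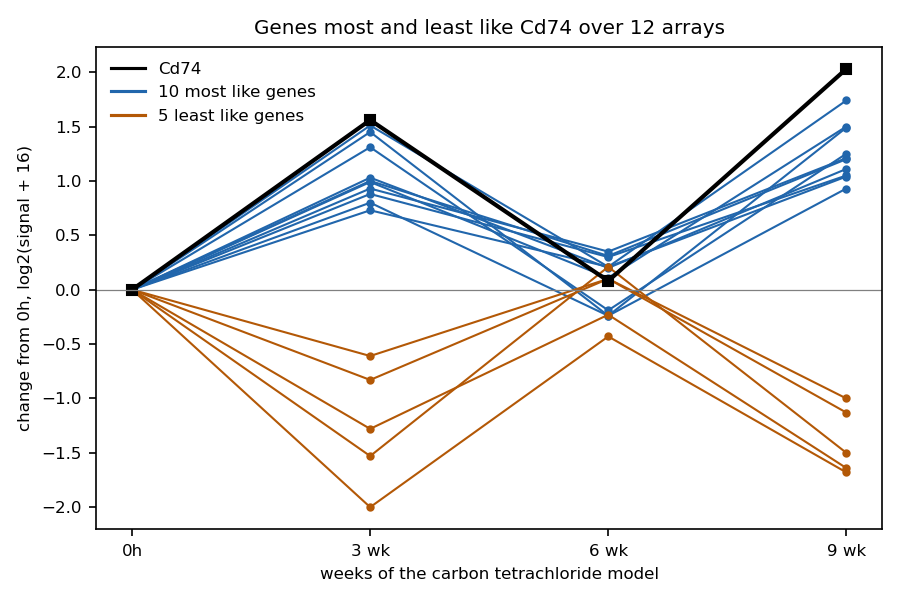
Change from 0h on the log2(signal + 16) scale over the weeks of the model for Cd74 (black), the 10 genes most like it (blue) and the 5 least like it (orange). The blue lines go up, back and up again beside Cd74, and the orange lines run the opposite way.

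Taking the 3 calls together, higher at 3 weeks than 0h, lower at 6 than 3 weeks and higher at 9 than 6 weeks, 44 of 18625 probe sets (0.236%) passed, and 7 of them were class II probe sets, 1 of which, RT1-Bb 1371065_at, the filter had selected. The 7 were Cd74, RT1-Da, both bright probe sets of RT1-Ba, both of RT1-Bb, and RT1-Db1 1370383_s_at. Of the 44, 32 had a gene name, for 30 genes, and 12 had none. Other genes among them were Cxcl9, a chemokine induced by interferon-gamma (1.27, -2.62 and 3.53 for the 3 changes), the interferon-induced Mx1 (1.04, -2.59 and 1.06) and Mx2 (1.43, -2.12 and 1.15), and Tnfrsf14 (1.19, -1.96 and 1.95). These genes were picked from the list after its values were seen, and it also held A2m, Aldh1a7, Bcl6, Dusp6 and Tubb4b, among others. The 3 calls do not ask for a level above normal at 9 weeks. Group means at 0h and 9 weeks were 654.6 and 3018.3 for Cxcl9 and 408.6 and 287.9 for Mx1. They were 1420.6 and 1952.6 for Mx2 and 125.2 and 303.9 for Tnfrsf14. The 3 calls follow the course already reported for class II, so the 7 class II probe sets among the 44 are description and not a test.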

How the data were processed

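The workbook the authors deposited has 1 linear intensity (signal) per probe set and array. By the values, the mean after trimming 2% from each end was 500.2 on every array. The column headers name scaling for the 0h arrays alone. GCOS 2.0 made the signals, per the submitters' processing notes, which name no settings. The series table deposited beside it held the same intensities within 0.1. The authors' log2 ratios against 0h, made by a method no source used here describes, were used only as a comparison. Unmatched columns numbered 0.

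Signals were used as log2(signal + 16), not renormalized, because array medians lay between 7.09 and 7.31. Arrays correlated at r = 0.967 to 0.977 within groups and 0.937 to 0.969 between groups. Arrays give no counts, so their number limits the precision. The 57 controls were left out, and probe sets with a mean above the 40th percentile were kept. limma 3.58.1 (lmFit, eBayes with trend) under R 4.3.3 estimated the 4 groups from all 12 arrays, with 8 residual degrees of freedom and Benjamini-Hochberg adjustment over all 18625 probe sets. List genes stand by their brightest kept probe set (10322 genes). On simulated data for 3 weeks against 0h, over 18625 probe sets, 95% of changes of 1.5 and 99% of changes of 3 (log2) were recovered, with 2 false calls. The simulated spread was that between these arrays, not between animals, and no change below 1.5 was simulated. Tables were handled in Python 3.11.15 (pandas 2.3.3, numpy 2.4.6) and plots drawn in matplotlib 3.10.9.

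Members, lists and thresholds were chosen with earlier results of these data known. One gene of the interferon-gamma list is not reported here and is out of its counts. Every member probe set is named. From each list the called genes were open to naming, up to the 4 with the largest change per comparison, with the defining markers. The 10 genes most and 5 least correlated with Cd74 are named. Replicate numbers did not pair the arrays: deviations of same-numbered arrays correlated at -0.02 to 0.05 over 18 pairs. Alternatives were another pseudocount, filter, scaling and fold limit, the series table, a replicate block and leaving out each array. Further ones were eBayes without trend, robust eBayes and a fit of only the 2 groups compared.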

Additional observations from a re-analysis of the deposited data

Results flagged for a closer look

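The change against 0h differed between times, by limma's test of the difference, in most class II probe sets. From 3 to 6 weeks the values on the log2 scale were -1.96 for RT1-Ba 1370822_at, -2.55 for RT1-Ba 1377334_at, -1.51 for RT1-Bb 1371033_at, -4.25 for RT1-Bb 1371065_at, -1.65 for RT1-Da, -1.81 for RT1-Db1 1370382_at, -1.57 for RT1-Db1 1370383_s_at, -1.13 for RT1-DMb and -1.48 for Cd74. From 6 to 9 weeks they were 2.76 for RT1-Ba 1370822_at, 1.91 for RT1-Ba 1377334_at, 2.41 for RT1-Bb 1371033_at, 5.18 for RT1-Bb 1371065_at, 2.09 for RT1-Da, 2.34 for RT1-Db1 1370382_at, 2.39 for RT1-Db1 1370383_s_at, 1.25 for RT1-DMa, 1.37 for RT1-DMb, 1.95 for Cd74 and 1.27 for Ciita. RT1-Bb 1371065_at and Ciita passed the filter only through their 9-week arrays, so their values rest on limma with no filter, with adjusted p of 3.79e-11 and 1.43e-11 for RT1-Bb 1371065_at in the 2 steps and 0.0354 for Ciita from 6 to 9 weeks.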

How the results depend on the processing

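Of 1638 values of 72 single changes under alternatives, the DM chains included, 1620 kept direction and call, 8 gained the call, 4 lost it and 6 turned in sign. With no fold limit 5 class II probe sets passed at 6 weeks against 0h (RT1-Bb 1371033_at higher; RT1-Ba 1370822_at, RT1-Da and both RT1-Db1 probe sets lower) and 8 between 9 and 3 weeks. In that last comparison 1 passed with arrays centred on the median (RT1-Bb 1371065_at, just past 2-fold) and 1 with quantile normalization (RT1-Bb 1371033_at, 1.01). Both scalings left the other counts of class II calls as reported. Sign turned in probe sets that were dim or near 0. Leaving out 1 array in turn, RT1-Ba 1392334_at ranged from -0.25 to 0.17 at 3 weeks and from -0.33 to 0.09 at 6 weeks, RT1-Bb 1371065_at from -0.09 to 0.02 at 6 weeks and Ciita from -0.13 to 0.61 at 6 weeks, where it was -0.07 without 0h replicate 1. With quantile normalization RT1-Ba 1392334_at stood at 0.01 from 3 to 6 weeks. With a pseudocount of 64 Ciita missed 2-fold at 9 weeks (0.95) and from 6 to 9 weeks (0.90), and with a pseudocount of 1 RT1-DMa reached it at 9 weeks. Of all called probe sets at 3 weeks 70.4% were higher, against 56.8% with arrays centred on the median, which moved the median change of all from 0.03 to -0.07. With the replicate block the class II calls were 7, 1 and 9 at 3, 6 and 9 weeks against 0h, 8 from 3 to 6, 9 from 6 to 9 and 0 between 9 and 3 weeks, as without it, and 6 of 12 arrays matched an array of their own number best. Leaving out RT1-Bb 1371065_at and Ciita, an alternative chosen after seeing the data, gave 6, 1, 7, 7, 7 and 0 calls in the same order. The causes of these shifts were not tested. Precision rests on 3 arrays a group, the number of animals is unknown, Ciita is dim, and paralogous RT1 chains are read by probe sets whose targets were not checked.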
